A study of Mus musculus with 16 samples.

Results

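The genes described here are 10 genes of antigen presentation by MHC class II and of T cells, measured by RNA sequencing in the brain of 16 mice. They were taken as a list of symbols, *H2-Aa*, *H2-Ab1*, *H2-Eb1*, *Cd74*, *H2-DMa*, *Ciita*, *Cd3e*, *Cd3g*, *Cd8a* and *Ccl5*, and all 10 were found among the 39179 genes of the count table. The mice carried either the wild-type *MRPS5* gene or, on both alleles, the V338Y mutation of *MRPS5*, which encodes a small-subunit protein of mitochondrial ribosomes. All were on the C57/BL6 background, and the 4 groups of 4 mice were wild-type and V338Y mice of 3 months and of 19 months. The labels give brain as the tissue, and the study's methods name cortex and female animals. Libraries held between 6181448 and 19601664 counts per mouse. Levels are given as CPM (counts-per-million) after scaling with TMM factors, and since the members had 0 to 288 counts in a mouse, the number of counts limits the precision of every value.

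MHC class II molecules carry peptides from taken-up proteins to the surface of presenting cells, where CD4 T cells read them. Each molecule is a pair of an alpha and a beta chain, which assembles with the invariant chain *Cd74* and exchanges its peptide with the help of H2-DM. In the brain, class II is known from microglia, from macrophages of the borders and from the few dendritic and B cells there, and *Ciita* is the coactivator without which class II genes are hardly transcribed. *Ciita* does not bind DNA itself but joins factors that sit on the X and Y boxes of class II promoters, RFX on the X box and NF-Y on the Y box. T cells are recognised by CD3 chains such as those of *Cd3e* and *Cd3g*, their cytotoxic subset by the coreceptor *Cd8a*, and *Ccl5* is a chemokine that activated T cells and other cells release.

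*H2-Aa*, *H2-Ab1*, *H2-Eb1* and *H2-DMa* lie together on chromosome 17 in the GENCODE M21 annotation of GRCm38, between 34119541 (start of *H2-DMa*) and 34316674 (end of *H2-Eb1*). *Ciita* lies on chromosome 16, at 10480059 to 10528418, *Ccl5* on chromosome 11, at 83525778 to 83530518, and *Cd74* is on another chromosome than the other members. *Cd3e* and *Cd3g* lie within one cluster of chromosome 9, from 44969572 to 45009627, and *Cd8a* lies on chromosome 6, at 71373427 to 71379173. *H2-DMa* overlaps *Brd2* and *Ciita* overlaps *Dexi*, both on the opposite strand, with up to 2933 and 639 counts in a mouse, and the sources used here do not say whether counting used the strand. Class II beta chain genes resemble each other, so that reads could be shared between them by the counting.

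Promoter windows are printed to show where the letters of the X and Y boxes were found and where not. Sequences are from RefSeq (GRCm38.p6), are read on the strand of the gene, and carry in capitals the Y box letters ATTGG and the X box core AACNNATG. H2-Aa is shown from the minus strand of chr17:34287852-34287921, H2-Eb1 from the plus strand of chr17:34305758-34305827, H2-DMb1 from the plus strand of chr17:34153080-34153149, and H2-DMa from the plus strand of chr17:34122742-34122811.
H2-Aa: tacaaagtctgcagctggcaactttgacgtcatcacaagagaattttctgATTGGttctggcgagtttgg
H2-Eb1: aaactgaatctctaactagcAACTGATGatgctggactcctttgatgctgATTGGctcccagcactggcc
H2-DMb1: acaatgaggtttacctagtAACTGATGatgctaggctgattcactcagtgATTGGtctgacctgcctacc
H2-DMa: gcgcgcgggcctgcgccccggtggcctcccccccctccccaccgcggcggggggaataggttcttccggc

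The Y box began 48 bases before the start of *H2-Aa*, 59 before that of *H2-Eb1* and 61 before that of *H2-DMb1*. The X box core began 89 bases before the start of *H2-Eb1* and 92 before that of *H2-DMb1*, and these exact letters were not in the 300-base entry of *H2-Aa*. Neither motif was in the entry of *H2-DMa* that is shown, and a second entry of that gene had ATTGG 198 bases before its start. The window shown begins shortly past the end of *Brd2* (34122634, opposite strand). It lies inside the annotated interval of *H2-DMa*, 34119541 to 34139101. Other starts within that interval were not examined, so a lack of the boxes in *H2-DMa* was not shown. On either strand, ATTGG was in 37.4% and AACNNATG in 8.86% of 32851 promoters of the same length, and an X box core followed 15 to 40 bases later by a Y box was in 0.192% of them. *H2-Eb2*, *H2-DMb2* and *H2-Ob* also held this arrangement. The entries of *Cd3e*, *Cd3g* and *Cd8a* held neither motif, and *H2-Ab1*, *Cd74*, *Ciita* and *Ccl5* had no entry in the table.

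Besides age, the young and the old libraries differed in features that cannot be told apart from age in the comparisons across age. Transcripts of the Y chromosome were present in all 8 young mice (*Ddx3y*, 915 to 2129 counts) and absent in all 8 old mice, whereas *Xist* had 5 to 20 counts in young and 6331 to 14860 in old mice, although the methods name female animals throughout. The 6 cerebellum genes summed to 494 to 883 CPM in young wild-type and 83.0 to 1300 CPM in young V338Y mice, and to 67.0 to 80.9 CPM in the old mice of both genotypes. The low value of 83.0 CPM was that of young V338Y mouse 14. The part of these features in the class II values was not tested. *H2-Aa*, *H2-Ab1*, *H2-Eb1* and *Cd74* together summed to 5.62 to 10.4 CPM in the 8 young and 23.2 to 49.2 CPM in the 8 old mice. Pituitary hormone genes (4 genes) summed to 1.19 to 2.58 CPM in young mice, 75.6 to 116 CPM in old wild-type and 21.3 to 72.2 CPM in old V338Y mice.

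Class II transcripts were several-fold more abundant in brains of 19 months than of 3 months in both genotypes, and at 19 months *H2-Aa*, *H2-Ab1* and *Cd74* were lower in V338Y than in wild-type mice. *H2-DMa* stayed between 4.70 and 7.25 CPM in all 16 mice. *Cd3e*, *Cd3g*, *Cd8a* and *Ccl5* had at most 2 counts in a mouse at 3 months and at most 9 at 19 months. In bulk tissue, fewer cells of a type and less RNA per cell cannot be told apart.

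*H2-Aa* is the alpha chain of the I-A molecule. In 3-month-old wild-type mice 9 to 12 it measured 1.35, 1.65, 1.15 and 1.46 CPM, and in 3-month-old V338Y mice 13 to 16 it measured 1.02, 1.26, 1.69 and 2.02 CPM. At 19 months it measured 8.86, 8.27, 10.6 and 8.28 CPM in wild-type mice 12 to 15 and 5.95, 5.33, 3.60 and 4.10 CPM in V338Y mice 17 to 20. The young groups overlapped, every old mouse was above every young mouse, and every old wild-type mouse was above every old V338Y mouse. Mouse numbers are those of the labels, and a number that stands in a pair of groups does not mark the same animal.

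*H2-Ab1* is the beta chain that pairs with *H2-Aa*. It measured 2.59, 1.92, 2.22 and 1.98 CPM in young wild-type mice and 1.28, 0.957, 0.351 and 1.60 CPM in young V338Y mice. At 19 months it measured 6.76, 6.95, 8.01 and 7.26 CPM in wild-type and 6.25, 4.66, 4.18 and 4.04 CPM in V338Y mice. V338Y mice were below wild-type mice at both ages without overlap.

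*H2-Eb1* is the beta chain of the I-E molecule, whose alpha chain gene is a pseudogene in this strain (*H2-Ea-ps* had 0 counts in all 16 mice). It measured 2.09, 1.78, 0.975 and 1.29 CPM in young wild-type, 1.59, 1.11, 1.41 and 1.84 CPM in young V338Y, 4.51, 7.19, 6.28 and 6.25 CPM in old wild-type and 5.95, 3.86, 3.39 and 4.22 CPM in old V338Y mice. Old mice were above young mice throughout. The old genotypes overlapped, because wild-type mouse 12 was below V338Y mouse 17.

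*Cd74*, the invariant chain, was the member with the most counts in every old mouse. It measured 3.57, 4.03, 4.34 and 5.68 CPM in young wild-type and 4.08, 3.53, 2.18 and 3.86 CPM in young V338Y mice, against 18.7, 23.8, 24.3 and 20.8 CPM in old wild-type and 17.6, 14.5, 12.01 and 11.02 CPM in old V338Y mice. Old wild-type mice were again above all old V338Y mice, although mouse 12 of the former and mouse 17 of the latter were close.

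*H2-DMa*, the alpha chain of the peptide exchange factor, averaged 6.06 ± 1.02 CPM in young wild-type, 5.92 ± 1.05 in young V338Y, 6.48 ± 0.664 in old wild-type and 6.22 ± 0.676 in old V338Y mice (SD, n = 4 each), with all 4 groups overlapping. *Ciita* was near the limit of detection at 3 months, with 2, 3, 2 and 3 counts in wild-type and 4, 3, 0 and 6 in V338Y mice. At 19 months it had 16, 15, 6 and 10 counts in wild-type mice, or 1.22 ± 0.428 CPM, and 8, 3, 16 and 7 in V338Y mice, or 0.568 ± 0.308 CPM (SD, n = 4). Old V338Y mice overlapped with both the young V338Y and the old wild-type group.

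**Figure D1:**
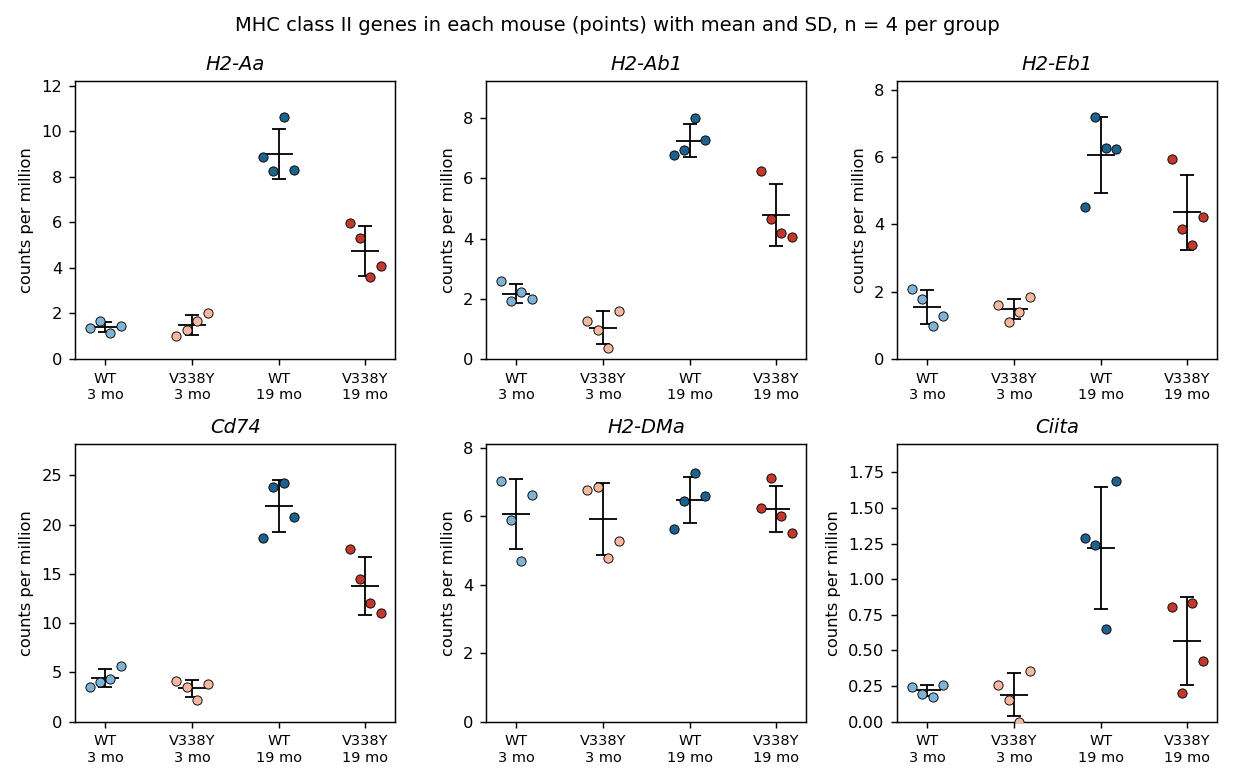
Level of 6 class II genes in CPM (vertical axis, from 0) in each mouse of the 4 groups (points), with the mean and SD of 4 mice (lines). *H2-Aa* averaged 9.004 CPM in old wild-type against 4.75 in old V338Y mice and below 1.5 in both young groups, whereas *H2-DMa* stayed near 6 CPM in all groups.

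Per kilobase of exon, on which genes can be compared with each other, *Cd74* led in every group, from 2.03 ± 0.509 CPM per kb in young V338Y to 13.03 ± 1.57 in old wild-type mice (SD, n = 4). In old wild-type mice *H2-Eb1* (3.12 ± 0.577), *H2-Ab1* (2.82 ± 0.214) and *H2-Aa* (2.37 ± 0.291 CPM per kb) followed in an order whose neighbours overlapped within 1 SD, and *H2-DMa* (1.88 ± 0.193) came next. *Ccl5* (0.447 ± 0.350), *Cd8a* (0.198 ± 0.118), *Cd3g* (0.128 ± 0.132) and *Ciita* (0.128 ± 0.045 CPM per kb) lay below all of these, and *Cd3e* was lowest at 0.015 ± 0.020. In young wild-type mice the second place was taken by *H2-DMa*, at 1.76 ± 0.297 CPM per kb, ahead of *H2-Ab1* at 0.847 ± 0.118.

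The first comparison concerned age in wild-type mice. *H2-Aa* rose 6.33-fold from 3 to 19 months (log2 fold change 2.66, SE 0.18, adjusted p = 5.3e-14, edgeR quasi-likelihood test with Benjamini-Hochberg adjustment over all genes tested). *Cd74* rose 4.96-fold (2.31, SE 0.13, adjusted p = 5.8e-16), *H2-Eb1* 3.98-fold (1.99, SE 0.22, adjusted p = 2.3e-09) and *H2-Ab1* 3.395-fold (1.76, SE 0.17, adjusted p = 1.9e-10). *Ciita* rose 5.29-fold (2.402, SE 0.44, adjusted p = 2.3e-05), but it passed the filter on low counts, which asks for 10 counts in 2 or more mice of either group, only through the old wild-type group. The filter thus favoured a difference in *Ciita*, which is left out of the counts that follow. *H2-DMa* had a log2 fold change of 0.11 (SE 0.15, adjusted p = 0.53). Of the 5 members that reached 10 counts in both groups, 4 were called higher with age, beside 31.4% of the 16101 genes tested. The same 4 did not overlap between the ages, as did 26.9% of all genes in that direction. The median log2 fold change of these 5 members was 1.99, against -0.005 over all genes tested.

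In V338Y mice *H2-Ab1* rose 4.40-fold between the ages (log2 fold change 2.14, SE 0.29, adjusted p = 9.6e-05), *Cd74* 3.95-fold (1.98, SE 0.18, adjusted p = 4.6e-06), *H2-Aa* 3.11-fold (1.63, SE 0.23, adjusted p = 1.1e-04) and *H2-Eb1* 2.87-fold (1.52, SE 0.22, adjusted p = 1.2e-04). *H2-DMa* was at 0.06 (SE 0.14, adjusted p = 0.76), and its sign turned when libraries were scaled by their totals only. Called higher with age in these mice were 23.1% of 16770 genes, and 22.2% did not overlap in that direction, beside 4 of the 5 tested members by either measure. *Ciita* did not pass the filter here, with 13 counts summed over the young and 34 over the old mice, a ratio of 2.88 after scaling (95% exact interval 1.48 to 5.95 from counting error only). The two-sided exact permutation test of its CPM gave p = 0.0857, or 0.143 adjusted over the 5 members tested in this way.

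At 3 months none of the 5 tested members was past the threshold between the genotypes, by edgeR or by DESeq2, and 0.0616% of the 16241 genes tested were called in either direction (10 genes). At an unadjusted p under 0.05, edgeR had 1 member, *H2-Ab1*. Its log2 fold change was -1.01 (SE 0.32, adjusted p = 0.93), in size like the differences called at 19 months, and its groups did not overlap, as was so for 1.86% of all genes lower in V338Y mice. *H2-Ab1* averaged 2.18 ± 0.304 CPM in wild-type and 1.05 ± 0.534 CPM in V338Y mice (SD, n = 4), on 5 to 29 counts a mouse. The lowest value, 0.351 CPM from 5 counts, was that of V338Y mouse 15. Without single mice the log2 fold change of *H2-Ab1* ranged from -1.28 to -0.76. *Cd74* stood at -0.36 (SE 0.21), and *H2-Aa*, *H2-Eb1* and *H2-DMa* were within 0.08 of 0 on the log2 scale, with SEs of 0.16 to 0.28. After every library was thinned to the smallest total, *H2-Eb1* was at 1.30 (adjusted p = 0.93, edgeR) and *H2-Aa* at -0.15. The thinned value of *H2-Eb1* lay outside its range without single mice (-0.19 to 0.11), and what moved it was not tested.

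At 19 months 3 class II members were lower in V338Y than in wild-type mice. *H2-Aa* was 1.95-fold lower (log2 fold change -0.96, SE 0.14, adjusted p = 6.0e-05), at 4.75 ± 1.08 against 9.004 ± 1.11 CPM (SD, n = 4). *Cd74* was 1.63-fold lower (-0.70, SE 0.14, adjusted p = 0.018), at 13.8 ± 2.92 against 21.9 ± 2.63 CPM, and *H2-Ab1* 1.55-fold lower (-0.63, SE 0.14, adjusted p = 0.0091), at 4.78 ± 1.02 against 7.25 ± 0.550 CPM. *H2-Eb1* (-0.51, SE 0.17, adjusted p = 0.11) did not pass, and *H2-DMa* was at -0.05 (SE 0.13). *Ciita* stood at -1.07 (SE 0.38, adjusted p = 0.13), but it was tested only through the wild-type group, the higher one. The 3 members that fell were read against 1.92% of the 16420 genes tested that were called lower in V338Y mice. The same 3 did not overlap between the genotypes, as did 4.82% of all genes in that direction. The median was -0.63 over the 5 members that reached the filter in both groups and -0.0007 over all genes. With scaling by library totals only, the calls over all genes changed from 196 higher and 316 lower to 357 higher and 263 lower, and these 3 members were still called lower. After every library was thinned to the smallest total in 1 random draw, *H2-Aa* (-0.91, adjusted p = 0.11, edgeR) and *H2-Ab1* (-0.095, adjusted p = 0.93) were no longer called. The thinned value of *H2-Ab1* lay outside its range without single mice (-0.75 to -0.56). Whether this draw reflects depth alone was not tested. *H2-Ab1* was also not called in a fit of all 16 mice (-0.62, adjusted p = 0.20, edgeR).

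The calls at 19 months depended on single libraries to different degrees. *H2-Aa* kept its call whichever mouse was left out (adjusted p from 2.0e-05 to 0.0013, edgeR), as did *H2-Ab1* (0.0014 to 0.047). *Cd74* lost it without wild-type mouse 13 (adjusted p = 0.073), wild-type mouse 15 (0.069) or V338Y mouse 19 (0.053), and *H2-Eb1* gained one without wild-type mouse 12 (0.028) or V338Y mouse 17 (0.023).

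Ratios within a library do not depend on its scaling. In old mice *H2-Aa* had 1.26 to 1.57 counts per count of *H2-DMa* in wild-type and 0.600 to 0.952 in V338Y mice, with no overlap. *Cd74* had 3.15 to 3.69 counts per count of *H2-DMa* in old wild-type and 2 to 2.81 in old V338Y mice, again without overlap. In the 8 young mice these ratios were 0.151 to 0.382 for *H2-Aa* and 0.456 to 0.925 for *Cd74*. All of them rest on the counts of *H2-DMa*, which overlaps *Brd2* on the opposite strand.

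Whether the age difference itself differed between the genotypes was tested as an interaction over all 16 mice. No member passed, and 0.0535% of the 16831 genes tested did (9 genes). The nearest was *H2-Aa*, whose rise was smaller in V338Y mice by 1.02 on the log2 scale (SE 0.30, adjusted p = 0.24, edgeR), the 1 member with an unadjusted p under 0.05. DESeq2 likewise called no member and 43 genes in all. The interaction of *H2-Ab1* was 0.38 (SE 0.33), that of *Cd74* -0.32 (SE 0.25) and that of *H2-Eb1* -0.46 (SE 0.33), and for no member was the genotype difference at 19 months shown to differ from that at 3 months.

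**Figure D2:**
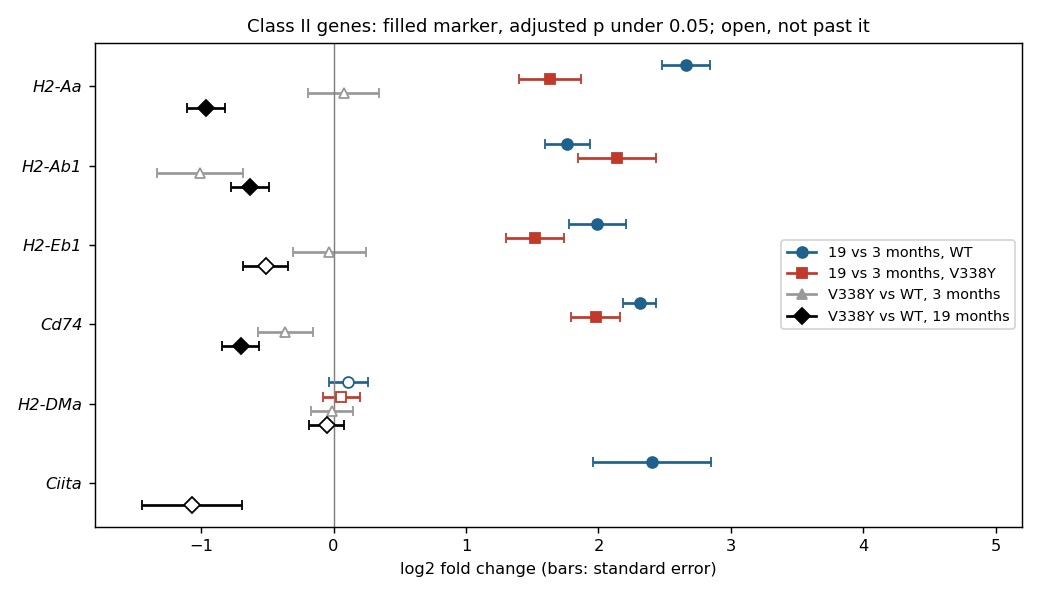
Log2 fold change (horizontal axis) with its standard error (bars) for 6 class II genes (rows) in 4 comparisons, filled where the adjusted p was under 0.05. The age differences of *H2-Aa*, *H2-Ab1*, *H2-Eb1* and *Cd74* lay between 1.52 and 2.66, those between the genotypes at 19 months between -0.96 and -0.51, and all values of *H2-DMa* near 0. *Ciita* was not tested in V338Y mice across age nor between the genotypes at 3 months.

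The T cell members were read from few molecules, and raw counts are therefore given for each mouse. *Cd3e*, the epsilon chain of the CD3 complex, had 0 counts in all 4 young wild-type mice, 0, 0, 1 and 0 in young V338Y, 0, 1, 0 and 1 in old wild-type and 1, 1, 0 and 1 in old V338Y mice. With 6 counts in all 16 libraries, every group was at or under the 3 counts that a count of 0 allows, and no fold is given. *Cd3g*, the gamma chain, had 0, 0, 1 and 0 counts in young wild-type, 0 in all young V338Y, 3, 5, 0 and 6 in old wild-type and 0, 3, 8 and 3 in old V338Y mice. Counts above 1 were thus seen only in old mice, but 1 mouse of each old group had none.

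*Cd8a*, the coreceptor of cytotoxic T cells, had 1, 2, 0 and 0 counts in young wild-type, 0, 2, 0 and 0 in young V338Y, 5, 7, 5 and 8 in old wild-type and 2, 6, 9 and 8 in old V338Y mice. In CPM every old mouse was above every young mouse of its genotype. *Ccl5* had 0 counts in all young wild-type mice, 1, 2, 2 and 1 in young V338Y, 1, 3, 5 and 5 in old wild-type and 2, 2, 9 and 5 in old V338Y mice. Wild-type mouse 15 at 19 months had the smallest library of all and yet 20 counts over these 4 genes, and V338Y mouse 19, with one of the largest, had 26.

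**Figure D3:**
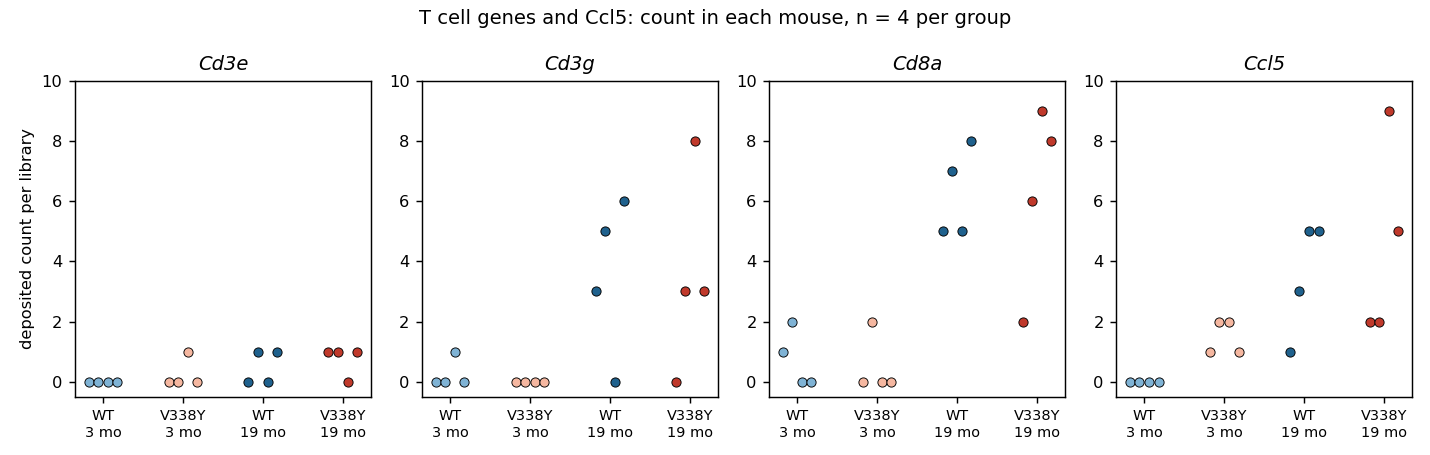
Deposited count (vertical axis) of *Cd3e*, *Cd3g*, *Cd8a* and *Ccl5* in each mouse (points) of the 4 groups, not scaled for depth. No young mouse had more than 2 counts of any of them, and the highest value was 9, for *Cd8a* and for *Ccl5* in old V338Y mice.

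Summed over the mice of a group and scaled, *Cd8a* was 9.70 times as high in old as in young wild-type mice (25 against 3 counts, 95% exact interval 2.96 to 50.2) and 13.8 times as high in V338Y mice (25 against 2 counts, 3.44 to 120). *Cd3g* was 16.3 times as high in old wild-type mice (14 against 1 count, 2.48 to 689) and at least 5.14-fold higher in old V338Y mice (14 counts against a floor of 3 over the group, with a lower exact limit of 3.66). *Ccl5* was at least 5.43-fold higher in old wild-type mice (14 counts against the same floor, with a lower exact limit of 3.86) and 3.31 times as high in old V338Y mice (18 against 6 counts, 1.26 to 10.2). The floor bounds take the higher count as it was observed, and the exact limits allow for its counting error as well. None of them covers the spread between mice.

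Over mice, the two-sided exact permutation test with 4 against 4 cannot give a p below 0.0286. That value was reached for *Cd8a* and *Ccl5* with age in wild-type mice (adjusted p = 0.0571 over the 4 members tested this way) and for *Cd8a* in V338Y mice (adjusted p = 0.143 over 5). By the same exact test *Cd3g* gave p = 0.143 in both genotypes, *Ccl5* 0.0571 in V338Y mice, and *Cd3e* 0.429 in wild-type and 0.371 in V338Y mice. None passed after adjustment, and no member could have passed alone. The smallest possible p became 0.143 where only *Cd8a* reached it, and 0.0571 where *Cd8a* and *Ccl5* both did. When the filter on low counts was dropped, the edgeR fit called *Cd3g* (adjusted p = 0.0019), *Cd8a* (1.0e-04) and *Ccl5* (2.0e-04) higher with age in wild-type mice, and *Ciita* (0.046), *Cd3g* (0.0034) and *Cd8a* (9.0e-04) in V338Y mice.

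Between the genotypes at 19 months no difference in these 4 genes was detectable at this depth. *Cd8a* and *Cd3g* had equal summed counts in both groups, 25 and 14, which after scaling is a ratio of V338Y to wild-type of 0.656 for both (95% exact intervals 0.362 to 1.19 and 0.290 to 1.49). For *Ccl5* the ratio was 0.844 (18 against 14 counts, 0.397 to 1.83). Exact permutation p-values were 0.114 for *Cd8a*, 0.429 for *Cd3g*, 0.486 for *Ccl5* and 0.8286 for *Cd3e*, with adjusted values from 0.457 to 0.8286. At 3 months *Ccl5* had 6 counts in V338Y against 0 in wild-type mice (permutation p = 0.0286, adjusted 0.143, exact), and the 95% exact interval of the ratio began at 0.816 and so held 1.

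Other genes of the class II pathway were examined in lists. Counts over lists here take in the genes that reached 10 counts in 2 or more mice of both groups compared. A gene that reached it in only 1 group was favoured by the filter to differ. Over all genes tested, 31.4% were called higher with age in wild-type and 23.1% in V338Y mice. Between the genotypes at 19 months, 1.92% were called lower in V338Y mice. Of 11 genes for class II molecules, 5 of 6 such genes rose with age in wild-type and 5 of 6 in V338Y mice, with medians of 1.88 and 1.58. Beside 4 members this was *H2-DMb1*, the beta chain of H2-DM, at 1.42 (SE 0.23, adjusted p = 3.6e-06) and 1.33 (SE 0.22, adjusted p = 2.9e-04). *H2-DMb1* averaged 1.32, 1.05, 3.46 and 2.69 CPM in the order young wild-type, young V338Y, old wild-type and old V338Y. Both genotypes thus showed a rise of the H2-DM beta chain beside an alpha chain that was not called. Whether the overlap of *H2-DMa* with *Brd2* affected the counts of *H2-DMa* was not tested. *H2-Ob*, of the modulator H2-DO, had 2 to 10 counts in young and 3 to 24 in old mice, *H2-Oa* 0 to 6 in young and 2 to 11 in old mice, *H2-DMb2* 1 to 8 in all mice, and *H2-Eb2* at most 2. Between the genotypes at 19 months, 3 of 7 such genes of this list fell and all 3 were members.

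Among genes of class II transcription other than *Ciita*, 1 of 7 rose with age in wild-type mice (the NF-Y subunit *Nfya*) and 4 fell, and in V338Y mice 5 of 7 fell and none rose. Over all genes tested, 31.5% were called lower with age in wild-type and 25.7% in V338Y mice, so falls were common. *Rfx5*, the DNA-binding subunit of RFX, fell by 0.23 (SE 0.08, adjusted p = 0.013) in wild-type and by 0.33 (SE 0.07, adjusted p = 0.0015) in V338Y mice on the log2 scale. The NF-Y subunit *Nfyb* fell by 0.34 (SE 0.07) and 0.39 (SE 0.08), and *Nfyc* by 0.25 (SE 0.08) and 0.41 (SE 0.09). None of these 7 passed the threshold between the genotypes at either age, by edgeR.

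Genes of class II processing rose together with age, 7 of 7 tested in wild-type and 6 of 7 in V338Y mice, with medians of 0.32 and 0.35. The shares of all genes called higher were 31.4% and 23.1%. The largest of the named changes was in *Ctss*, the protease that trims the invariant chain in presenting cells, at 1.41 (SE 0.05, adjusted p = 9.2e-21) in wild-type and 1.28 (SE 0.12, adjusted p = 2.4e-05) in V338Y mice. The proteases *Ctsd* (0.61 and 0.62), *Ctsb* (0.26 and 0.23) and *Lgmn* (0.27 and 0.30) rose less. Only *Ctss* among the 7 differed between the genotypes at 19 months, at 99.4 ± 2.77 CPM in V338Y against 120 ± 2.55 CPM in wild-type mice (SD, n = 4; log2 fold change -0.27, SE 0.04, adjusted p = 6.7e-05).

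Interferon gamma, the cytokine that induces *Ciita* in many cells, was itself hardly seen, as *Ifng* had 1 count in all 16 libraries together. Of 10 tested genes of its signalling, 6 rose with age in wild-type mice, and in V338Y mice 7 rose and 1 fell. The shares of all genes called higher were 31.4% and 23.1%. The transcription factor *Irf1* rose by 1.68 (SE 0.11) in wild-type and by 1.44 (SE 0.11) in V338Y mice. It was also lower in V338Y mice at 19 months (log2 fold change -0.37, SE 0.08, adjusted p = 0.0081). The receptor *Ifngr2* was the gene that fell.

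Costimulatory and inhibitory ligands of presenting cells rose with age in 4 of 4 genes in both genotypes (medians 1.93 and 1.45). Beside them, 31.4% of all genes were called higher in wild-type and 23.1% in V338Y mice. *Icam1*, an adhesion ligand for T cells, rose by 2.72 (SE 0.16) and 2.16 (SE 0.12), and *Cd274*, which encodes the inhibitory ligand PD-L1, by 2.24 (SE 0.19) and 1.87 (SE 0.21). At 19 months *Cd274* was lower in V338Y mice, at 3.89 ± 0.761 against 6.42 ± 0.547 CPM (SD, n = 4; -0.72, SE 0.15, adjusted p = 0.0035), the 1 gene of the list that passed between the genotypes.

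Partners of the T cell members gave a mixed picture. Of 10 genes of the T cell receptor and its coreceptors only *Cd4* and *Trbc2* passed the filter, and *Trbc2*, a constant region of the receptor's beta chain, fell with age in wild-type mice (-0.63, SE 0.21, adjusted p = 0.0086). *Trbc2* had 25 to 104 counts in young mice, in which *Cd3e* and *Cd3g* were at 0 or 1, so its counts did not follow those of CD3. *Cd4*, which microglia and macrophages can also transcribe, was not called in any comparison. *Cd8b1*, the partner chain of *Cd8a*, had 1 count in the 8 young mice together, 2, 5, 3 and 0 in old wild-type and 0, 3, 2 and 1 in old V338Y mice. *Cd3d* had 3 counts in the young and 10 in the old mice, *Cd247* 0 to 5 and *Trbc1* 0 to 2 in a mouse, and *Trac* 1 to 13 in young and 2 to 11 in old mice.

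In a list of 20 genes of T cell signalling and surface, 4 of 7 rose in wild-type and 4 of 7 in V338Y mice. Beside them, 31.4% and 23.1% of all genes were called higher with age. *Tcf7* rose by 1.47 (SE 0.19) and 1.05 (SE 0.17) and *Lcp2* by 1.29 (SE 0.20) and 1.05 (SE 0.19), but neither is specific to T cells, and *Bcl11b*, which cortical neurons express, was the most abundant gene of the list. Of 15 genes of cytotoxic and resident T cells 2 could be counted across age. *Itga1*, also known from vessels, rose by 2.27 (SE 0.08) and 2.09 (SE 0.09) and was lower in V338Y mice at 19 months (-0.26, SE 0.06, adjusted p = 0.018). *Eomes*, which marks neurons of some brain regions as well, fell by 2.68 (SE 0.24) in wild-type and by 2.58 (SE 0.40) in V338Y mice.

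Markers of microglia and border macrophages rose with age, beside 31.4% of all genes called higher in wild-type and 23.1% in V338Y mice. All 10 microglia markers rose with age in both genotypes (medians 0.85 and 0.72), with a summed level of 240 to 328 CPM in young, 529 to 558 in old wild-type and 485 to 518 in old V338Y mice. Border macrophage markers rose in 6 of 6 genes in wild-type and 4 of 6 in V338Y mice (medians 1.62 and 1.68), with a summed level that went from 13.8 to 20.5 CPM in young to 56.2 to 65.1 in old wild-type and 47.2 to 59.2 in old V338Y mice. At 19 months 3 of 10 microglia markers (among them *Csf1r* at -0.16 and *Siglech* at -0.32) and 1 of 7 border macrophage markers (*Mrc1*, at -0.29, SE 0.08) were lower in V338Y mice. Over all genes tested, 1.92% were called lower. The part of these cells in the class II values was not tested.

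Among dendritic cell markers 3 could be counted across age, of which in either genotype 1 rose and *Flt3* fell. *Itgax*, an integrin of dendritic cells that activated microglia express too, had 1 to 5 counts in a young mouse and 36 to 76 in an old one, so that it was tested across age only through the old groups, and was lower in V338Y mice at 19 months (-0.67, SE 0.14, adjusted p = 0.0045). *Xcr1*, a marker of one dendritic subset, was at 0 in 3 groups and had 1 count in the fourth. Of 10 B cell markers only *Ighm* could be counted across age, and it rose by 0.93 (SE 0.09) in wild-type and 0.76 (SE 0.10) in V338Y mice. *Igkc*, a light chain constant region, had 0 to 6 counts in a young mouse, 25 to 51 in old wild-type and 12 to 25 in old V338Y mice, a difference between the old genotypes of -1.62 (SE 0.24, adjusted p = 6.6e-05). *Ighm* was also lower in old V338Y mice (-0.50, SE 0.10, adjusted p = 0.0081). It had 143 to 288 counts in a young mouse, so the counts of *Ighm* did not follow those of *Igkc*. None of 5 natural killer cell markers passed the filter.

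**Figure D4:**
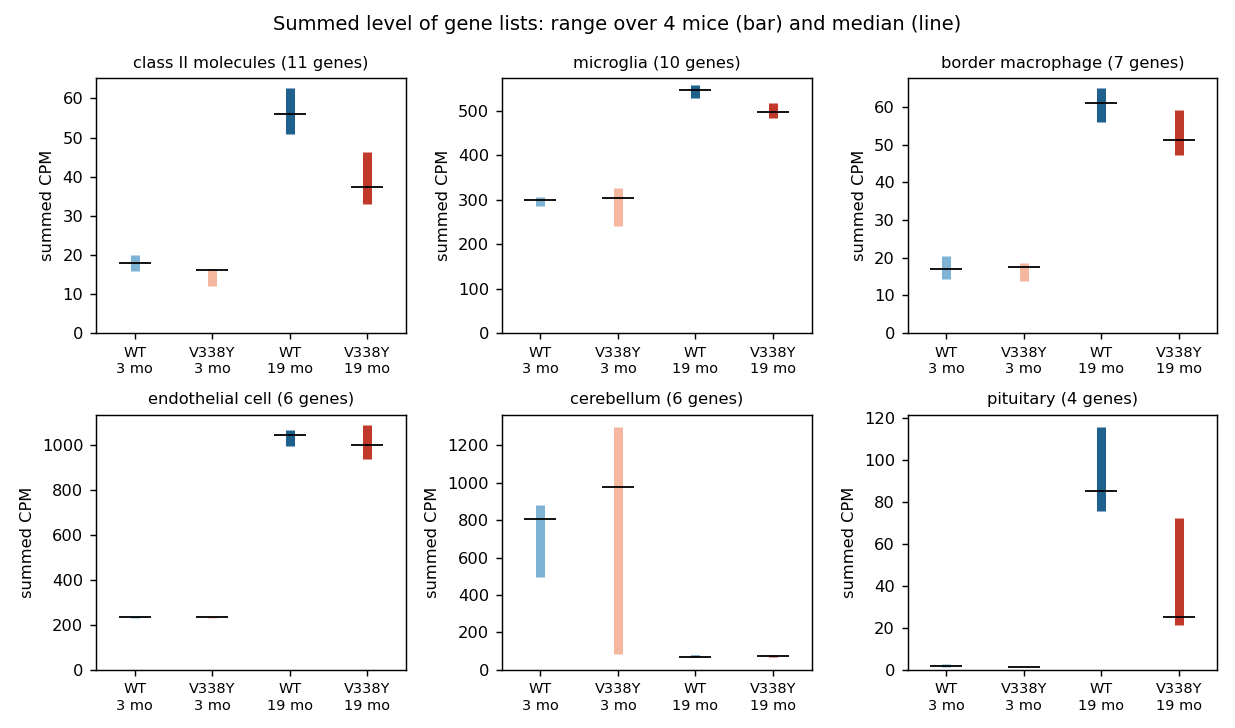
Summed CPM (vertical axis, from 0) of class II genes and of 5 marker lists in the 4 groups, as the range over 4 mice (bars) and the median (lines). Class II, microglia, border macrophage and endothelial genes were higher in all old than in all young mice, cerebellum genes were high in young mice except 1, and pituitary genes were highest in old wild-type mice.

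Blood, membrane and vessel genes also rose with age, beside 31.4% of all genes called higher in wild-type and 23.1% in V338Y mice. Erythroid genes rose in 5 of 5 in both genotypes and had median log2 differences of -0.50 between the old genotypes, with none called. Markers of meningeal fibroblasts rose in 9 of 9, and at 19 months 5 of 9 were lower and 1 higher in V338Y mice. Of all 16420 genes tested between the old genotypes, 1.92% were called lower and 196 genes higher. Endothelial markers rose in 6 of 6 (medians 2.33 and 2.28) and none differed between the old genotypes. Among monocyte and neutrophil genes, 3 of 3 rose in both genotypes, and *Ltf* was lower in old V338Y mice (-1.09, SE 0.25). *Prl*, a pituitary hormone, was at 13.5 to 17.8 CPM in old V338Y against 56.1 to 95.3 CPM in old wild-type mice. The choroid plexus genes summed to 156 to 2294 CPM in old V338Y mice, highest in mice 17 and 18. These 2 mice also had the highest *H2-Aa*, *Cd74* and *H2-Ab1* of their group. Leaving them out, a choice made after seeing the data, therefore had to enlarge the differences of these genes. The differences between the old genotypes were then -1.23 for *H2-Aa*, -0.93 for *Cd74*, -0.81 for *H2-Ab1* and -0.67 for *H2-Eb1*, and all 4 were called. The part of blood, membranes and pituitary in the class II values was not tested.

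Within groups the class II genes varied only loosely together. Over the 16 mice, after each group's mean was removed, Pearson's r of log2 CPM was 0.70 between *H2-Ab1* and *Cd74*, 0.46 between *H2-Aa* and *H2-Eb1*, and 0.17 between the partner chains *H2-Aa* and *H2-Ab1*. Among 15237 genes, the 5 most like *H2-Ab1* were *Itgax* (0.94), *Gfap* (0.93), *Mpeg1* (0.91), *Tmem106c* (0.87) and *Dffa* (0.86), and those most like *Cd74* were *Cfap57* (0.93), *Cd9* (0.89), *Lgals3* (0.89), *Mrpl36* (0.88) and *Szrd1* (0.86). For *H2-Aa* they were *Mmaa* (0.84), *5430400D12Rik*, *Gm26447*, *Lrrc1* and *Nod2* (0.79), and for *H2-Eb1* *Agtr2* (0.85), *Slc35b2*, *Agpat2*, *Mlxipl* and *Haus6* (0.81). These values are a description over mice that share libraries and low counts, and the leading genes were the highest of many. Young V338Y mouse 15 had the lowest *H2-Ab1* (0.351 CPM, 5 counts) and *Cd74* (2.18 CPM) of its group. Its *Ctss* was at 27.9 CPM, against 44.5 to 45.9 CPM in the other mice of that group. The part of this mouse in the correlations was not tested.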

How the data were processed

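RNA of 16 mouse brain samples in 4 groups of 4 was sequenced. The authors deposited 1 table of expected counts per gene, without normalization, as whole numbers of at most 4 significant digits (the 1495 values with more digits all end in 0). The study's methods name RSEM, Ensembl 75 and GRCm37, whereas the submitters' processing notes name bcl2fastq 1.8.4, STAR 2.4.2a, featureCounts and GRCm38. A TruSeq stranded kit was used after ribosomal RNA depletion. Identifiers were matched to GENCODE M21 (37607 of 39179).

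Counts were analysed in R 4.3.3 with edgeR 4.0.16 (TMM, robust quasi-likelihood test, Benjamini-Hochberg over all genes kept, threshold 0.05), on genes that reached 10 counts in 2 or more mice of one group. DESeq2 1.42.0 was an alternative. The age-by-genotype interaction was fitted over 16 mice. Members dropped by the filter were compared with exact permutation tests in scipy 1.17.1. A count of 0 was taken to allow 3 counts. CPM was computed on one TMM scale over all mice, and 0.5 was added before log2 for correlations. The fits were tested on simulated counts. Over all pairs of mice within groups, the chi-square per degree of freedom was at least 1.87, so no pair agreed within sampling noise.

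Groups and mouse numbers were taken from the labels. Nothing in the labels describes separate cultures or litters, so p-values measure the spread between these mice. The members and lists were chosen with earlier results of these data known. Named were all members, their partners, the 3 most abundant genes of each list, and genes called between the genotypes at 19 months in lists with at most 3 such. *Nfya*, *Ifngr2*, *Xcr1* and *Itgax* counts were chosen after their values were seen. Alternatives were RLE factors, library totals only, stricter and no count filters, DESeq2, thinning, 1 fit of 16 mice and leaving out each mouse. Some genes that this rule names are not reported here.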

Additional observations from a re-analysis of the deposited data

Results flagged for a closer look

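In 3 of 40 combinations of a member and a group, 1 mouse lay far from the other 3, beyond Dixon's 95% critical value for 4 samples. The rule's rate of about 1 in 20 by chance is for continuous values and does not hold for these counts. Each was a T cell gene in a young group whose other mice were at 0, where any count above 0 is flagged. *Cd3e* was at 0.070 CPM in V338Y mouse 15 of 3 months, from 1 count. *Cd3g* was at 0.089 CPM in wild-type mouse 11 of 3 months, from 1 count. *Cd8a* was at 0.101 CPM in V338Y mouse 14 of 3 months, from 2 counts. All are within the 3 counts that a count of 0 allows.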

How the results depend on the processing

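No paired analysis was possible because the compared groups share fewer than 2 mouse numbers. The age differences of *H2-Aa*, *H2-Ab1*, *H2-Eb1*, *Cd74* and *Ciita* kept direction and call in all 73 alternative values in wild-type mice. Without *Ciita* the same held for all 59 values in V338Y mice. *Ciita* passed the count filter across age only through the old wild-type group, so its values are no measure of stability. Without a filter on counts, 8 members were past the threshold with age in wild-type and 7 in V338Y mice, since more members were then tested. Between the genotypes at 19 months, thinning of every library to 6181448 counts (1 random draw) left 1 member, *Cd74*. *H2-Aa* was then at -0.91 (adjusted p = 0.11, edgeR) and *H2-Ab1* at -0.095 (0.93), the latter outside its range of -0.75 to -0.56 without single mice. Whether the draw reflects depth alone was not tested. The fit of all 16 mice lost *H2-Ab1* (-0.62, adjusted p = 0.20, edgeR). *H2-Eb1* was called without the filter (adjusted p = 0.041). Leaving out 1 mouse gave 2 to 4 members at 19 months and 0 at 3 months and for the interaction. With age it gave 5 in wild-type mice, *Ciita* among them, and 4 in V338Y mice. Leaving out V338Y mice 17 and 18, chosen after seeing the data, gave 4, but these mice had the highest *H2-Aa*, *Cd74* and *H2-Ab1* of their group.

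Differences near 0 changed sign. *H2-DMa* across age in V338Y mice was at -0.0017 with library totals only and between -0.022 and 0.14 without single mice, and its interaction was at 0.21 after thinning and between -0.12 and 0.065. Without single mice it ranged from -0.11 to 0.065 between the genotypes at 3 months and from -0.13 to 0.011 at 19 months. At 3 months, after thinning, *H2-Aa* was at -0.15 and *H2-Eb1* at 1.30 between the genotypes, and without single mice they ranged from -0.10 to 0.22 and from -0.19 to 0.11. The differences in mean CPM of *Ciita* at 3 months (-0.0846 to 0.0342) and of *Cd3e* at 19 months (-0.0267 to 0.0296) also turned. The causes were not tested.

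Counts of all genes called between the genotypes at 19 months went from 512 to 120 in the fit of all mice, 179 after thinning, 791 without the filter and 287 to 611 without single mice (294 without wild-type mouse 13, 287 without V338Y mouse 19). They went from 10 to 20, 26 and 23 at 3 months without the filter, with DESeq2 and in the fit of all mice, from 9 to 32, 43 and 1 for the interaction without the filter, with DESeq2 and after thinning, and from 8181 to 5099 for age in V338Y mice after thinning. With library totals only, the age calls were 4175 higher and 6321 lower in wild-type (5050 and 5065 with TMM) and 3421 and 5319 in V338Y mice (3875 and 4306 with TMM).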
